A study of Mus musculus with 8 samples.

Results

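The RNA levels of 9 genes of homologous recombination and the DNA damage checkpoint were followed in cultured mouse MDSCs (myeloid-derived suppressor cells), an immature myeloid type able to dampen T cell responses. They are Brca1, Brca2, Blm, Nbn, Rad50, Mre11a, Atm, Atr and Chek1, and all 9 had enough counts to be tested. These genes were chosen by name out of 26930 genes in the count table, with earlier results of these data known. The 4 Romidepsin libraries come from cells exposed for 6 h to 0.5 µM Romidepsin, which inhibits histone deacetylases, and the 4 Untreated libraries from cells without it. The marrow donors of both groups were C57BL/6 mice, the cytokines were GM-CSF and IL-6 (40 ng/ml of each), and from day 4 the cells were kept in medium that TRAMP-C1 cells, a mouse prostate tumour line, had conditioned, and the labels call them senescent-like. Poly(A) RNA was sequenced, and values are read counts scaled to library size as CPM, with TMM factors that align most genes between libraries. The cells are a culture model, and no label says that replicates were separate cultures or animals, so the p-values describe the spread among these libraries alone, and that spread may be technical.

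Homologous recombination repairs a broken chromosome by copying an intact sister strand. The MRN complex, built from the proteins of Mre11a, Rad50 and Nbn, binds broken ends, starts to trim them and recruits the kinase ATM. Further trimming exposes single-stranded DNA, to which the kinase ATR is brought, and ATR activates its effector kinase CHK1, the product of Chek1, to hold the cell cycle. BRCA1 favours trimming and helps bring in BRCA2, which acts in the strand exchange that follows, while the helicase BLM acts in trimming and in taking apart the joined molecules at the end. These genes are best known from dividing cells, where many of them are transcribed in S phase.

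After Romidepsin, Brca1, Blm and Atr rose and Nbn fell, while Brca2, Rad50, Mre11a, Atm and Chek1 did not pass the test. Brca1 was 3.08-fold and Blm 2.79-fold higher by the fitted values, Atr was 1.75-fold higher, and Nbn was at 30.8% of its untreated mean. Thus 3 of 9 were called higher and 1 of 9 lower, where 20.3% of all 12852 tested genes were called higher and 16.2% lower (edgeR's quasi-likelihood test, Benjamini-Hochberg adjusted p under 0.05). As these shares of 33.3% and 11.1% rest on 3 genes and 1 gene, nothing is read from the counts, and the results are given gene by gene. The calls of Blm and Nbn held in all 8 fits that left out 1 library. Those of Brca1 and Atr each held in only 2 of these 8. The RNA is from bulk cultures, in which fewer cells expressing a gene and less RNA per cell cannot be told apart.

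The promoters of the 3 genes that rose are shown with that of Atm, the sister kinase gene of Atr, and that of Brca2, the partner of Brca1, neither of which passed. Each run holds 250 bases before and 50 after the RefSeq start on GRCm38.p6, read 5′ to 3′ on the strand of the gene. Capitals mark matches on either strand to CCAAT (NF-Y), TGACGT (part of the cyclic AMP response element), GGGCGG (GC box), CCGGAAG (ETS factors), TTTNNCGC (E2F) and TTTGAA (the cell cycle homology region). The Brca1 run is chr11:101551906-101552205 on the minus strand, Blm chr7:80534949-80535248 on the minus strand, Atr chr9:95857347-95857646 on the plus strand, Atm chr9:53536622-53536921 on the minus strand and Brca2 chr5:150522371-150522670 on the plus strand.
Brca1: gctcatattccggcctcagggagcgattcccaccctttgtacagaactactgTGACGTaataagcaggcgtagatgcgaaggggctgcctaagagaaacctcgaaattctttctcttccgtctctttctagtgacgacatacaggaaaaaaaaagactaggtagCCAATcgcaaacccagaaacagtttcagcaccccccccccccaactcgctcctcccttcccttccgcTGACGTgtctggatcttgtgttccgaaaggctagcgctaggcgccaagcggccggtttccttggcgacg
Blm: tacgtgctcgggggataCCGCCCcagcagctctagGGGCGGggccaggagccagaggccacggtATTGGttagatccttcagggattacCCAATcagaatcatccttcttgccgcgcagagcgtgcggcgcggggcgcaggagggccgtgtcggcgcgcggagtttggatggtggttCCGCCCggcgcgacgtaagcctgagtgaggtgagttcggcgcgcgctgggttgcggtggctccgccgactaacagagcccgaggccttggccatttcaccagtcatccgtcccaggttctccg
Atr: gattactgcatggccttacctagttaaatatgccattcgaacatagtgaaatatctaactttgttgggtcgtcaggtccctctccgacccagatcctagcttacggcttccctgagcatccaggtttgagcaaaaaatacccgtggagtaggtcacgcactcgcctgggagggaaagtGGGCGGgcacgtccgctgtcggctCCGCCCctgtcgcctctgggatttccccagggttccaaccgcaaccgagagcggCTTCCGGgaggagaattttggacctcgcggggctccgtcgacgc
Atm: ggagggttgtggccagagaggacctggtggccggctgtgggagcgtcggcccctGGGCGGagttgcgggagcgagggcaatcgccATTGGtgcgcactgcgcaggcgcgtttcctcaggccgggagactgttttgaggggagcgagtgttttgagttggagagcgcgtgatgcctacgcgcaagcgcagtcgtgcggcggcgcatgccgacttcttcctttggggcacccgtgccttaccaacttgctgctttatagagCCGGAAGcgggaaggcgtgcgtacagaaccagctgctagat
Brca2: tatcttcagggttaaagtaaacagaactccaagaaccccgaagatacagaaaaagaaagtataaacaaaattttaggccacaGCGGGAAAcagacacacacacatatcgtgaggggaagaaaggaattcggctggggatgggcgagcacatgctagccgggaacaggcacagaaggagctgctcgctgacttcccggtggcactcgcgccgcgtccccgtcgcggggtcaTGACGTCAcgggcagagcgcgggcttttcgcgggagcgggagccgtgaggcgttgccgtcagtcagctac

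No one of the 6 motifs is in all 3 promoters of the genes that rose. The Brca1 window holds TGACGT at 198 and 19 bases before the start and CCAAT at 86 bases. The Blm window holds 3 GC boxes and 2 CCAAT matches, and the Atr window 2 GC boxes and an ETS match. Genes that did not pass hold such matches too. The Mre11a window, not shown, has as many GC boxes and CCAAT matches as that of Blm, and a TGACGT match. The Atm window has a GC box, a CCAAT match and an ETS match. The Brca2 window holds the full palindrome TGACGTCA 20 bases before the start, where TGACGT is read on each strand and the matches overlap, and an E2F match 168 bases before it. A RefSeq promoter was found for 7 of the 9 genes, and none was matched for Nbn and Rad50. CCAAT was in 4 of these 7 and in 37.4% of all 32851 promoters, GGGCGG in 4 and 35.7%, TGACGT in 3 and 7.51%, CCGGAAG in 2 and 8.86%, TTTNNCGC in 1 and 5.17%, and TTTGAA in 0 and 17.9%. The GC content of the 7 was 53.7% to 66.0%, against a median of 52.7% over all promoters. A match is only a stretch of letters, and factor binding was not measured.

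By position, 4 of the 9 genes lie on chromosome 9 and 2 on chromosome 11. On GRCm38 (GENCODE M21), Nbn spans chromosome 4, 15957925 to 15992589, Blm chromosome 7, 80454733 to 80535119, Brca1 chromosome 11, 101488764 to 101551955, and Atr chromosome 9, 95857597 to 95951781. Rad50 spans chromosome 11, 53649519 to 53707319, Mre11a chromosome 9, 14784654 to 14837123, and Atm chromosome 9, 53439149 to 53536740. Brca2 spans chromosome 5, 150522630 to 150570329, and Chek1 chromosome 9, 36708482 to 36727065. Exons of Atr, Brca2 and Mre11a overlap genes on the opposite strand, and whether the counting used strand is not given in the sources used here. Those neighbours held at most 0.774 CPM for Atr and 0.164 CPM for Brca2. Ankrd49, which shares 154 exon bases with Mre11a, held 22.6 ± 2.92 CPM in Romidepsin and 24.7 ± 1.76 CPM in Untreated libraries (SD, n = 4 each), so that Mre11a values are uncertain.

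Library depth ranged from 12996892 to 23176949 counts, Untreated replicate 4 being the deepest. Raw counts of the 9 genes ran between 9 (Chek1, Untreated replicate 3) and 1026 (Rad50, Untreated replicate 4). Over all tested genes Romidepsin replicate 3 had a mean correlation of 0.910 with the rest of its own group and of 0.934 with the Untreated group, and results are therefore also given without it. Myeloid markers were present in every library, their summed level being 13734 to 32447 CPM in Romidepsin and 39812 to 46563 CPM in Untreated libraries. Most of this sum was the lysozyme gene Lyz2, at 12173 to 26102 CPM in Romidepsin and 27308 to 36996 CPM in Untreated libraries. Of the 12 markers 2 were called lower and none higher, where 16.2% of all tested genes were called lower and 20.3% higher. The same shares of all genes stand beside the calls of the other marker lists below. The Romidepsin means of all 12 myeloid markers were 12.3% to 59.9% of the Untreated means. The called myeloid markers were Spi1 and Csf3r. Spi1, a myeloid transcription factor gene, was at 20.5 to 225 CPM in Romidepsin and 434 to 620 CPM in Untreated libraries (edgeR adjusted p = 0.0204). Csf3r, the G-CSF receptor gene, was at 7.05 to 143 CPM in Romidepsin and 226 to 360 CPM in Untreated libraries (adjusted p = 0.0439). The myeloid surface gene Itgam was at 168 to 712 CPM in Romidepsin and 407 to 902 CPM in Untreated libraries and was not called. The granulocyte gene Ly6g held only 1.38 to 11.5 CPM in Romidepsin and 4.68 to 19.6 CPM in Untreated libraries. The summed B cell markers were at 33.1 to 449 CPM in Romidepsin and 267 to 931 CPM in Untreated libraries, with 4 of 7 tested called lower. Stromal markers summed to 17.1 to 214 CPM in Romidepsin and 17.7 to 78.2 CPM in Untreated libraries, highest in replicate 2 of each group. T and NK cell markers were at 3.04 to 6.03 CPM in Romidepsin and 4.88 to 25.1 CPM in Untreated libraries, with 1 of 3 tested called lower. Tumour epithelial markers summed to 16.2 to 56.1 CPM in Romidepsin and 5.01 to 177 CPM in Untreated libraries, with none called. Erythroid markers summed to 49.4 to 81.6 CPM in Romidepsin and 41.3 to 63.4 CPM in Untreated libraries, also with none called. The part of these cell types in the results was not tested.

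**Figure D1:**
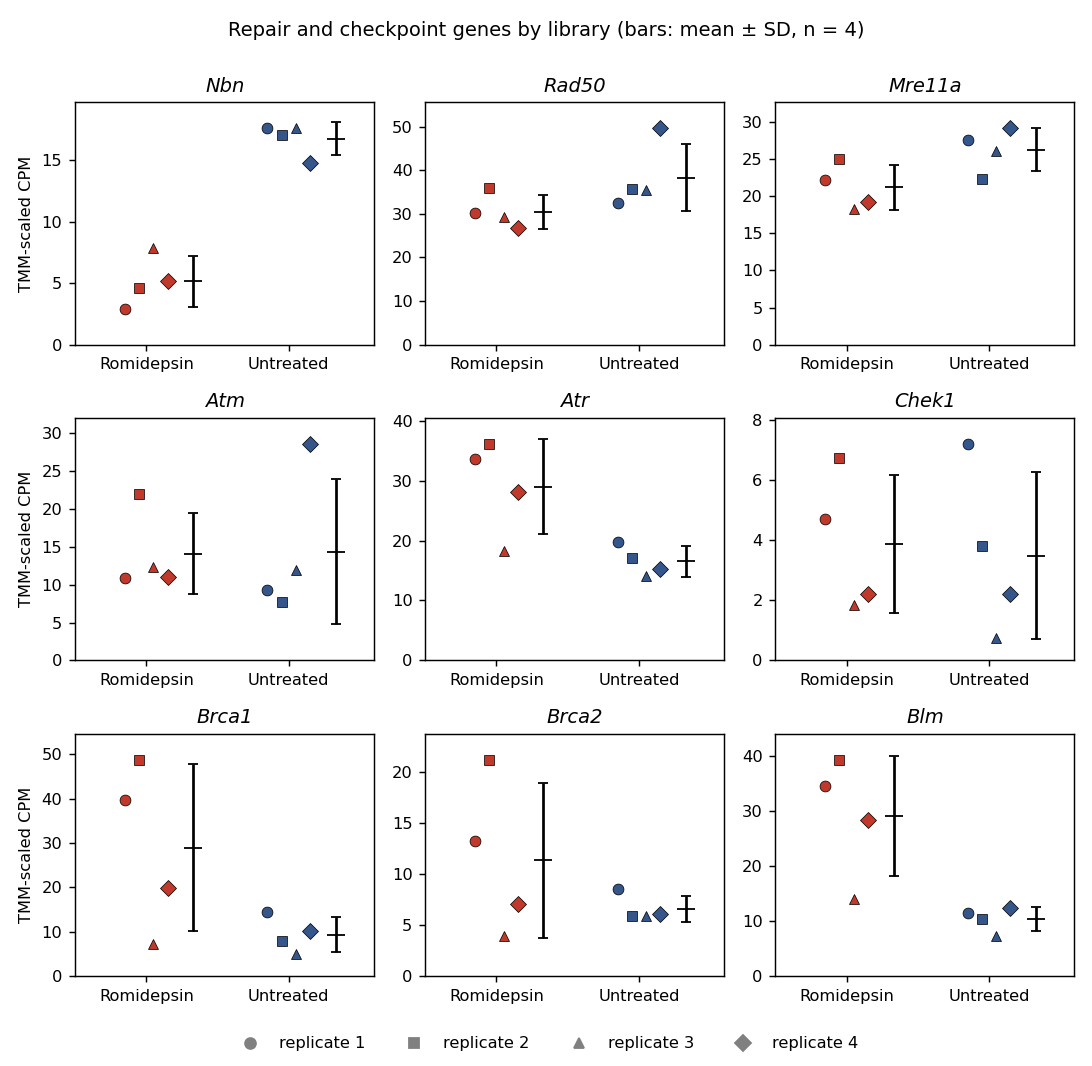
TMM-scaled CPM of the 9 genes in each library, with Romidepsin on the left and Untreated on the right of each panel, marker shapes for replicates 1 to 4, and bars for the mean ± SD (n = 4). Nbn is lower in every Romidepsin library (at most 7.88 CPM) than in any Untreated one (at least 14.8 CPM), and Blm is higher in each (at least 14.1 CPM, against at most 12.3 CPM).

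Within the MRN complex only Nbn was called. Nbn encodes NBS1, the subunit that holds ATM at the break. Romidepsin replicates 1 to 4 held 2.92, 4.64, 7.88 and 5.18 CPM of Nbn, against 17.6, 17.0, 17.6 and 14.8 CPM in Untreated replicates 1 to 4. All Romidepsin libraries were low, with replicate 3 the highest of them, and the groups did not overlap. The log2 fold change was −1.70 ± 0.29 (SE, edgeR adjusted p = 0.00390). Nbn was lower in 4 of 4 pairs of equal replicate number, which the lack of overlap already implies. How many of all tested genes keep 1 direction in all 4 pairs was not counted, and no label defines the pairs. Nothing is therefore read from such counts, here or for Atr and Brca1 below. Nbn was called lower under all 17 alternative settings, with log2 fold changes from −2.01 to −1.07.

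Rad50, the ATPase that tethers the ends, held 30.2, 35.9, 29.2 and 26.7 CPM in Romidepsin replicates 1 to 4 and 32.4, 35.6, 35.4 and 49.6 CPM in Untreated replicates 1 to 4. The groups overlapped, and Untreated replicate 4 was the highest. Its log2 fold change was −0.33 with a 95% interval of −0.73 to 0.08 (adjusted p = 0.174). Mre11a, the nuclease, held 22.3, 25.0, 18.3 and 19.2 CPM in Romidepsin and 27.6, 22.4, 26.1 and 29.2 CPM in Untreated replicates 1 to 4, again with overlap. Its log2 fold change was −0.31 with an interval of −0.69 to 0.07 (adjusted p = 0.166). Scaling to 20 housekeeping genes turned both positive (0.38 for Rad50, 0.42 for Mre11a), and library size alone put Mre11a at 0.00 (adjusted p = 0.997).

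Ratios between the subunits within a library do not depend on that scaling. Per kilobase of transcript, the ratio of Nbn to Rad50 was 0.197, 0.262, 0.549 and 0.395 in Romidepsin replicates 1 to 4 and 1.11, 0.972, 1.01 and 0.607 in Untreated replicates 1 to 4. Every Romidepsin value lay under every Untreated one, although Romidepsin replicate 3 and Untreated replicate 4 came close. The ratio of Nbn to Mre11a averaged 0.330 ± 0.169 in Romidepsin and 0.837 ± 0.136 in Untreated libraries (SD, n = 4 each) and did not overlap either. The ratio of Mre11a to Rad50 averaged 1.09 ± 0.08 in Romidepsin and 1.10 ± 0.19 in Untreated libraries, with overlapping values. Nbn transcript was thus low relative to both of its partners, as a description without a test of the ratio.

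**Figure D2:**
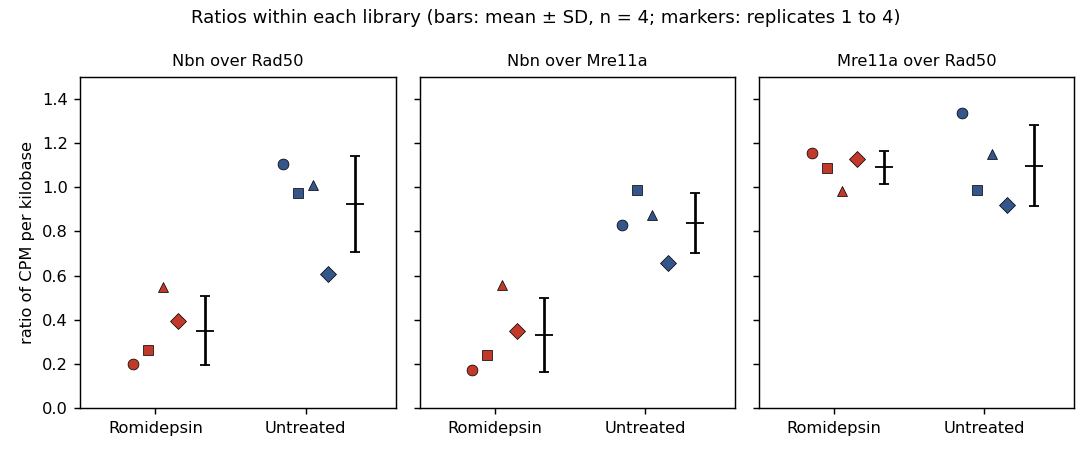
Ratios of CPM per kilobase between MRN subunits within each library, Romidepsin left and Untreated right, with replicate markers as circle (1), square (2), triangle (3) and diamond (4) and the mean ± SD (n = 4). Nbn over Rad50 spans 0.197 to 0.549 in Romidepsin and 0.607 to 1.11 in Untreated libraries, whereas Mre11a over Rad50 spans 0.985 to 1.16 in Romidepsin and 0.922 to 1.34 in Untreated libraries.

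Of the damage kinases, Atr was called and Atm and Chek1 were not. Atr, the kinase of stalled replication forks and trimmed ends, held 33.6, 36.1, 18.2 and 28.02 CPM in Romidepsin replicates 1 to 4, against 19.8, 17.0, 14.1 and 15.2 CPM in Untreated replicates 1 to 4. It was higher in 4 of 4 pairs, and the groups overlapped because Romidepsin replicate 3 lay under Untreated replicate 1. The log2 fold change was 0.81 ± 0.23 (adjusted p = 0.0258). The call was kept without Romidepsin replicate 3 (0.95, adjusted p = 0.00307) or Untreated replicate 1 (0.89, adjusted p = 0.0321). It was lost when any other library was left out, at adjusted p values of 0.0560 to 0.0765, with log2 fold changes from 0.69 to 0.83.

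Atm, the kinase called to breaks by the MRN complex, held 10.95, 22.0, 12.4 and 11.1 CPM in Romidepsin replicates 1 to 4 and 9.27, 7.76, 11.9 and 28.6 CPM in Untreated replicates 1 to 4. Romidepsin replicate 2 and Untreated replicate 4 stood high, and the groups overlapped fully. Its log2 fold change was −0.03 with an interval of −1.005 to 0.94 (adjusted p = 0.956), a wide range on both sides of 0. Without Untreated replicate 4 it was 0.53 (adjusted p = 0.211). Chek1, the effector kinase under ATR, was the least counted of the 9, with 28 to 106 reads in Romidepsin and 9 to 90 reads in Untreated libraries. Its level was 4.70, 6.73, 1.85 and 2.20 CPM in Romidepsin and 7.19, 3.80, 0.740 and 2.22 CPM in Untreated replicates 1 to 4. Its log2 fold change was 0.15 with an interval of −1.32 to 1.63 (adjusted p = 0.863), which includes changes in either direction. Without Romidepsin replicate 2 or Untreated replicate 3 or 4 its sign turned (−0.24, −0.20 and −0.03).

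Of the recombination factors proper, Brca1 and Blm were called. Brca1 held 39.8, 48.7, 7.28 and 19.9 CPM in Romidepsin replicates 1 to 4, against 14.4, 7.85, 5.01 and 10.3 CPM in Untreated replicates 1 to 4. Replicates 1 and 2 of the Romidepsin group stood far above the rest, and Romidepsin replicate 3 lay inside the Untreated range. The log2 fold change was 1.62 ± 0.55 (adjusted p = 0.0450), and Brca1 was higher in 4 of 4 pairs. This call lay close to the threshold. It was kept without Romidepsin replicate 3 (1.91, adjusted p = 0.00411) or Untreated replicate 1 (1.88, adjusted p = 0.0470) and lost without any other library (1.25 to 1.77, adjusted p 0.0624 to 0.114), with limma-voom (adjusted p = 0.112) and with no count filter (0.125).

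Blm held 34.5, 39.3, 14.1 and 28.5 CPM in Romidepsin replicates 1 to 4, against 11.5, 10.5, 7.32 and 12.3 CPM in Untreated replicates 1 to 4. The groups did not overlap, and Romidepsin replicate 3 lay nearest to the Untreated libraries. The log2 fold change was 1.48 ± 0.32 (adjusted p = 0.00880), and the call held under all 17 alternative settings, from 1.31 to 2.25. Of all tested genes, 18.7% lay higher and 16.5% lower in every Romidepsin library than in any Untreated one, 35.2% in all. Blm and Nbn were the only 2 of the 9 genes without overlap.

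Brca2 held 13.2, 21.2, 3.97 and 7.05 CPM in Romidepsin replicates 1 to 4, against 8.55, 5.95, 5.92 and 6.09 CPM in Untreated replicates 1 to 4. Romidepsin replicates 1 and 2 were above every Untreated library, replicate 4 lay among them and replicate 3 below all of them. The log2 fold change was 0.78 with an interval of −0.26 to 1.82 (adjusted p = 0.204). It passed without Romidepsin replicate 3 (1.03, adjusted p = 0.0393) and with housekeeping scaling (1.62, adjusted p = 0.0342). Without Romidepsin replicate 3, 4 of the 9 genes were therefore called higher, where 3270 of all 13170 genes tested there were. Without any one of the 6 libraries other than Romidepsin replicate 3 and Untreated replicate 1 only Blm was called higher. In those 6 fits 1793 to 2570 of all genes were called higher. Per kilobase, the ratio of Brca1 to Brca2 within a library was 2.99 to 4.90 in Romidepsin and 1.38 to 2.76 in Untreated libraries, without overlap and without a test.

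**Figure D3:**
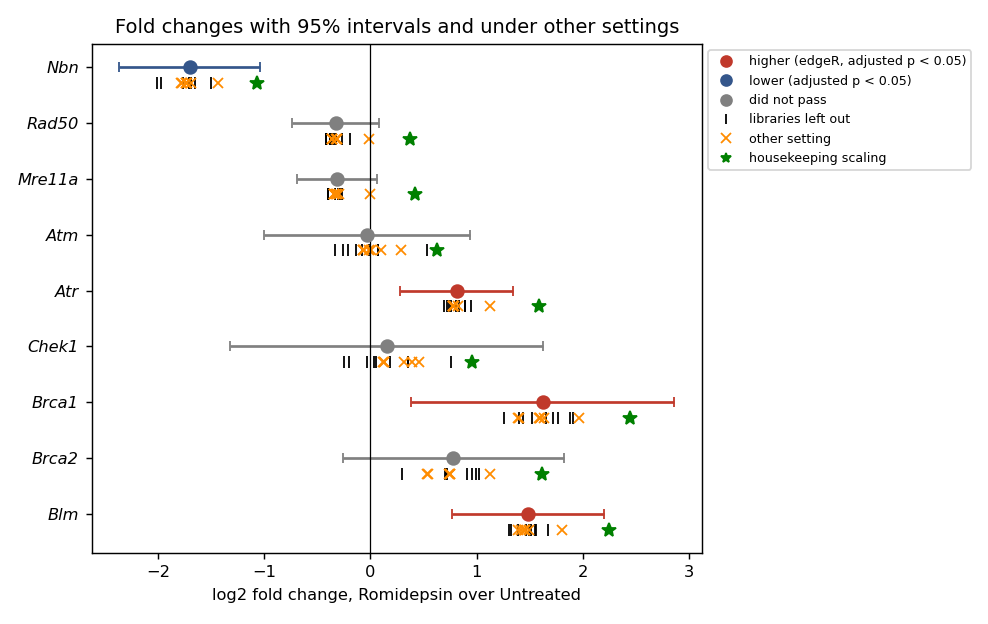
Log2 fold changes of Romidepsin over Untreated for the 9 genes, as points with 95% intervals coloured by the edgeR call, and below each point the estimates with libraries left out (ticks), under other settings (crosses) and with housekeeping scaling (star). Nbn stays between −2.01 and −1.07 and Blm between 1.31 and 2.25, whereas the estimates of Atm run from −0.33 to 0.63.

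The treated libraries differed among themselves in the same order for most of these genes. Romidepsin replicate 2 was the highest treated library for 8 of the 9 genes, the exception being Nbn. The order 2, 1, 4, 3 from high to low was seen for 6 genes, namely Brca1, Brca2, Blm, Mre11a, Atr and Chek1. Nbn had its highest level in Romidepsin replicate 3 and its lowest in replicate 1. For each of the 4 called genes, replicate 3 was the treated library nearest to the Untreated mean on the log scale. These orders share the libraries and their scaling and are given without a test. The share of all tested genes with these orders was not counted, so nothing particular to the 9 genes is read from them. The treated libraries also differed over all tested genes. On the first principal component, the main axis of difference between libraries (68.0% of the variance), Romidepsin replicates 1 to 4 lay at 105, 104, −1.17 and 50.3. The Untreated libraries lay at −77.3 to −50.6.

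**Figure D4:**
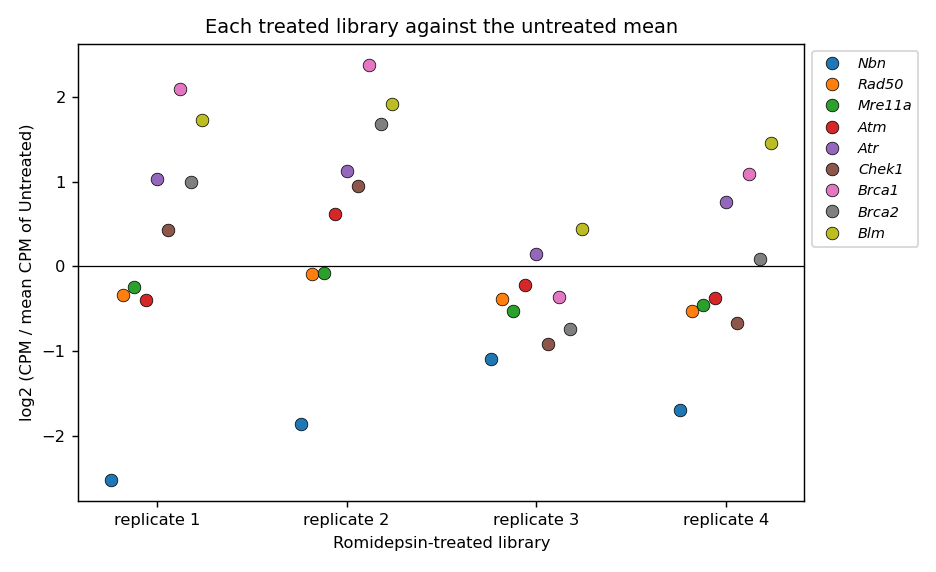
Log2 of the CPM in each Romidepsin library over the mean CPM of the Untreated libraries for the 9 genes, by replicate. Brca1, at 48.7 CPM in replicate 2 and 7.28 CPM in replicate 3 against an untreated mean of 9.39 CPM, spreads most, and the genes lie closer to 0 in replicate 3 than in replicates 1 and 2 for Brca1, Blm, Atr and Nbn.

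Compared per kilobase of the transcript with the longest coding sequence, the MRN genes stood first in Untreated libraries. Mre11a was at 8.001 ± 0.882, Rad50 at 7.42 ± 1.496 and Nbn at 6.61 ± 0.52 CPM per kilobase (SD, n = 4). Blm followed at 2.18 ± 0.46, Atr at 2.04 ± 0.31, Atm at 1.47 ± 0.98, Brca1 at 1.43 ± 0.60, Chek1 at 0.919 ± 0.729 and Brca2 at 0.618 ± 0.120 CPM per kilobase. The only neighbours in this order whose libraries did not overlap were Nbn, at 5.84 or more, and Blm, at 2.58 or less. In Romidepsin libraries the order was Mre11a (6.45 ± 0.92), Blm (6.10 ± 2.29), Rad50 (5.92 ± 0.76), Brca1 (4.402 ± 2.859), Atr (3.58 ± 0.98), Nbn (2.03 ± 0.81), Atm (1.44 ± 0.54), Brca2 (1.06 ± 0.71) and Chek1 (1.02 ± 0.60 CPM per kilobase), and all neighbours overlapped. Nbn thus stood in place 6 in Romidepsin and in place 3 in Untreated libraries, and Blm in place 2 in Romidepsin and in place 4 in Untreated libraries.

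Of the 9 genes, 3 share a start region with a protein-coding gene that runs the other way within 1000 bases, a feature looked up after the values of the 9 genes were known. Npat, a coactivator of histone gene transcription, starts 307 bases from Atm. It held 32.1, 43.3, 29.7 and 40.2 CPM in Romidepsin replicates 1 to 4 and 15.6, 14.2, 18.7 and 30.0 CPM in Untreated replicates 1 to 4, and was called higher (log2 fold change 0.89 ± 0.26, adjusted p = 0.0264), while Atm was not called. Nbr1, an autophagy receptor gene, starts 194 bases from Brca1 and, unlike Brca1, was not called. It held 126.9 ± 22.4 CPM in Romidepsin and 139.5 ± 32.8 CPM in Untreated libraries (−0.14 ± 0.21, adjusted p = 0.625). Ankrd49, 202 bases from Mre11a, did not pass (−0.13 ± 0.16, adjusted p = 0.519), nor did Mre11a. Whether the genes of a pair differ in their change was not tested.

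From 8832 genes averaging 10 CPM or more, the profiles most like those of the 9 genes were found by Pearson's r of log2 CPM over the 8 libraries, as a description. For Nbn they were Fam160b2 (r = 0.993) and Wtap (0.990), for Blm Cry2 (0.991) and Ppat (0.990), for Brca1 Tsr1 (0.995) and Tedc1 (0.992), and for Atr Nop2 (0.995) and Eif2b3 (0.994). For Chek1 they were Dlgap5 (0.967) and Clspn (0.964), the second of which encodes the adaptor through which ATR reaches CHK1. Brca2 was matched best by Mettl2 (0.987) and Ddx56 (0.977), Atm by Ankrd52 (0.981) and Aff4 (0.979), Rad50 by Dcp1a (0.987) and Akap9 (0.986), and Mre11a by Dpp3 (0.975) and Kat7 (0.961). The points are 8 libraries that share treatment, replicate numbers and scaling, and these are the highest of many values.

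The partners of the 9 genes were counted in lists taken from pathway knowledge, chosen with earlier results of these data known. Exons of Xrcc3, Fancm, Faap24, Fance, Rad17, Cdc25b, Shld1, Xrcc6 and Orc6, named below, overlap a gene on the opposite strand. Without a known strand setting, reads from the shared bases cannot be assigned to 1 gene of the pair. The overlaps run from 12 bases for Xrcc3 to 575 bases with 1 neighbour of Fancm. Of 37 further recombination genes, 8 rose, 2 fell and 27 did not pass, with a median log2 fold change of 0.36 against 0.01 over all tested genes. The share that rose, 21.6%, is near the 20.3% of all genes, and the 5.41% that fell is below 16.2%. Helq, a helicase of strand annealing, rose to 20.6 ± 5.86 CPM in Romidepsin against 7.63 ± 0.66 CPM in Untreated libraries (log2 fold change 1.43 ± 0.24, adjusted p = 0.00337). Xrcc3, a recombination gene, rose by 2.16 ± 0.52 (adjusted p = 0.0133) and the SMC complex gene Smc5 by 0.54 ± 0.14 (adjusted p = 0.0151). Rad51d, a recombination gene too, fell (−1.06 ± 0.22, adjusted p = 0.00721), as did Top3a, the topoisomerase partner of BLM (−0.49 ± 0.16, adjusted p = 0.0374). The call of Top3a was lost with the replicate block (adjusted p = 0.0556), so that 1 gene fell with the block, and without each library except Romidepsin replicate 3 and Untreated replicate 1 (0.0502 to 0.104). The call of Rad51d was lost with housekeeping scaling (0.278) and that of Smc5 with no count filter (0.0645). Sem1, the small partner of BRCA2, was at 157.0 ± 45.8 CPM in Romidepsin and 261.5 ± 72.6 CPM in Untreated libraries (−0.74 ± 0.29, adjusted p = 0.0688), and passed without Romidepsin replicate 3 (0.0317) or Untreated replicate 4 (0.0319) and in DESeq2 (0.0309). The number of these genes that rose was 3 without Untreated replicate 3, 4 without Romidepsin replicate 1 or 2 or Untreated replicate 2, and 5 without Romidepsin replicate 4. The number that fell was 4 without Romidepsin replicate 3, where 3077 of all 13170 genes fell. It was 1 without Romidepsin replicate 1, 2 or 4 or Untreated replicate 2 or 3.

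Of 14 Fanconi anaemia genes, which repair crosslinked strands together with BRCA2, 2 rose, 1 fell and 11 did not pass (median 0.14). The shares, 14.3% and 7.14%, are below the 20.3% and 16.2% of all genes in the fit given here. Fancm, the translocase gene of the pathway, rose to 21.8 ± 8.77 CPM in Romidepsin against 6.17 ± 1.79 CPM in Untreated libraries (1.81 ± 0.35, adjusted p = 0.00573). Ube2t, which encodes its ubiquitin-conjugating enzyme, rose by 1.37 ± 0.45 (adjusted p = 0.0398) and Faap24 fell (−0.78 ± 0.21, adjusted p = 0.0213). Fance was at 35.8 ± 10.2 CPM in Romidepsin and 23.3 ± 3.497 CPM in Untreated libraries (0.62 ± 0.23, adjusted p = 0.0566) and passed with the replicate block (0.0318) and without Romidepsin replicate 3 (0.0232). With the block 2 genes fell. Without Romidepsin replicate 3, 6 rose and 2 fell, where 3270 of all 13170 genes tested there rose and 3077 fell. The share of Fanconi genes that rose was then above that of all genes. The call of Ube2t was lost without any library but Romidepsin replicate 3 and Untreated replicate 1 (adjusted p 0.0699 to 0.103), leaving 1 that rose. The call of Faap24 was lost without Romidepsin replicate 4 or Untreated replicate 2 or 3 (0.0525 to 0.0625), leaving none that fell, although 3 had an unadjusted p under 0.05 in all libraries and DESeq2 called 3. It was also lost with housekeeping scaling (0.953), library size alone (0.161) and no count filter (0.0628).

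Of 34 other checkpoint signalling genes, 5 rose, 4 fell and 25 did not pass (median 0.33). The shares, 14.7% and 11.8%, are below those of all genes in the fit given here. Rad17, the loader of the checkpoint clamp, rose to 64.0 ± 12.0 CPM in Romidepsin against 29.9 ± 2.92 CPM in Untreated libraries (1.10 ± 0.17, adjusted p = 0.00268). The phosphatase gene Ppm1d, which switches the checkpoint off, rose by 0.82 ± 0.18 (adjusted p = 0.00916), and the cohesin gene Smc3 by 1.08 ± 0.27 (adjusted p = 0.0148). Trp53, the p53 gene, fell to 40.8 ± 13.6 CPM in Romidepsin against 87.5 ± 9.02 CPM in Untreated libraries (−1.10 ± 0.24, adjusted p = 0.00890). Smc1a, the cohesin partner of Smc3, fell as well (−0.84 ± 0.20, adjusted p = 0.0138), and the phosphatase gene Cdc25b did not pass (0.53 ± 0.19, adjusted p = 0.0558) except with the block (0.0472), housekeeping scaling (0.00260) and library size alone (0.00896). The falls of Trp53 and Smc1a did not pass with housekeeping scaling (adjusted p = 0.117 and 0.610). With the block 8 rose. The count that rose was 10 without Romidepsin replicate 3, a larger share than the 3270 of all 13170 genes tested there. It was 3 without Untreated replicate 3, and the count that fell was 2 without Romidepsin replicate 2 or 4 or Untreated replicate 3.

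End joining is the competing route of break repair, and its genes went both ways: of 19 tested, 4 rose, 6 fell and 9 did not pass, with a median of −0.34. Shld1, a shieldin subunit gene that restrains end trimming, fell to 2.14 ± 0.17 CPM in Romidepsin against 8.93 ± 1.78 CPM in Untreated libraries (−2.06 ± 0.26, adjusted p = 0.00153). Nhej1, the gene of the ligation factor XLF, fell by 1.64 ± 0.32 on the log2 scale (adjusted p = 0.00650). Its level was low, at 1.37 ± 0.23 CPM in Romidepsin and 4.29 ± 1.11 CPM in Untreated libraries. In the other direction, the ligase gene Lig4 rose to 21.6 ± 4.51 CPM in Romidepsin against 9.70 ± 0.78 CPM in Untreated libraries (1.15 ± 0.20, adjusted p = 0.00426), and Xrcc6, the Ku70 gene, by 1.31 ± 0.25 (adjusted p = 0.00566). Parp1 was at 148.1 ± 34.4 CPM in Romidepsin and 104.5 ± 17.3 CPM in Untreated libraries (0.50 ± 0.20, adjusted p = 0.0766) and passed without Romidepsin replicate 3 (0.0371) or Untreated replicate 4 (0.0452). The share that rose, 21.1%, is near the 20.3% of all genes, and the 31.6% that fell lies above 16.2%. With housekeeping scaling 7 rose and 1 fell, and the call of Nhej1 was lost (adjusted p = 0.0547).

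Because many of the 9 genes are transcribed in dividing cells, 49 replication and cell cycle genes were counted beside them, and 5 rose, 7 fell and 37 did not pass (median 0.20). The shares, 10.2% and 14.3%, are below the 20.3% and 16.2% of all genes in the fit given here. Mki67, the proliferation marker, fell to 75.4 ± 19.1 CPM in Romidepsin against 184.2 ± 61.3 CPM in Untreated libraries (−1.29 ± 0.29, adjusted p = 0.0101). E2f2 (−1.75 ± 0.29, adjusted p = 0.00350), a cell cycle transcription factor gene, and Rrm2 (−1.39 ± 0.26, adjusted p = 0.00506), which encodes a subunit of the enzyme that makes deoxynucleotides, fell too. The calls of Mki67 and Rrm2 were lost with housekeeping scaling (adjusted p = 0.106 and 0.0849). Orc6, an origin recognition gene, rose to 40.2 ± 16.0 CPM in Romidepsin against 13.0 ± 4.75 CPM in Untreated libraries (1.64 ± 0.38, adjusted p = 0.0121), and Pcna, the replication clamp gene, by 0.77 ± 0.20 (adjusted p = 0.0162, lost without Untreated replicate 2 at 0.0501). Top2a, at 96.2 ± 34.5 CPM in Romidepsin and 110.4 ± 36.6 CPM in Untreated libraries, did not pass (−0.20 ± 0.32, adjusted p = 0.645). With the replicate block 8 rose. The count that rose was 12 without Romidepsin replicate 3, a share near that of all genes there (3270 of 13170). It was 1 to 3 without Romidepsin replicate 1, 2 or 4 or Untreated replicate 2, 3 or 4. The count that fell was 4 without Romidepsin replicate 1 or 4 or Untreated replicate 1. The part of these changes in those of Brca1, Blm and Atr was not tested.

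**Figure D5:**
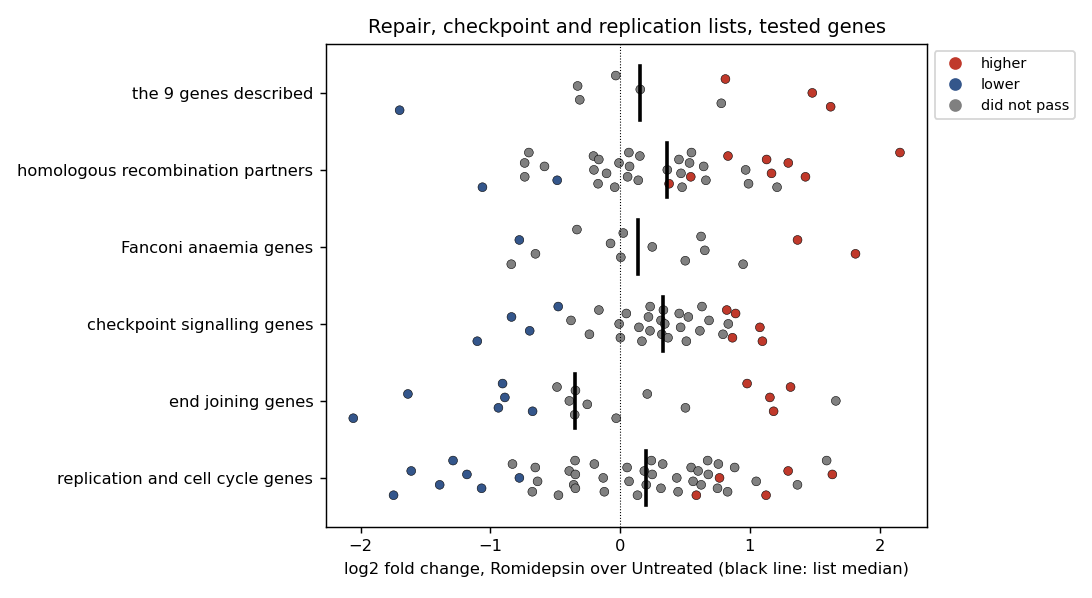
Log2 fold changes of Romidepsin over Untreated for the tested genes of each list, coloured by the edgeR call, with the list median as a black line and vertical spread only to separate points. Medians run from −0.34 for end joining to 0.36 for the recombination partners, and genes that rose and genes that fell occur in every list.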

How the data were processed

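Poly(A) RNA of 4 Romidepsin and 4 Untreated MDSC libraries was analysed from the deposited table of raw counts, in whole numbers for each Ensembl identifier. The tools were STAR 2.5.2a, FastQC and DESeq2 and the build GRCm38 (mm10), per the submitters' processing notes. Not given in the sources used here: counting tool, annotation release and strand setting. Symbols, coordinates and transcript lengths are from GENCODE M21 on GRCm38 (26881 of 26930 identifiers matched).

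The test was edgeR's quasi-likelihood F test (version 4.0.16, R 4.3.3; two-sided, robust), on 12852 genes that passed filterByExpr, with TMM scaling factors. P-values are Benjamini-Hochberg adjusted over all tested genes with a threshold of 0.05. Fold changes are Romidepsin over Untreated, and SE and 95% intervals come from the F statistic. The procedure was tested on simulated data. Precision is limited by counting at low levels, and depth was 12996892 to 23176949 counts.

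The 9 genes and all lists were chosen with earlier results of these data known. From each list the text names up to 3 called genes with the smallest p in the commoner direction, up to 2 in the other, and the most abundant uncalled gene; 1 gene that this rule names is not reported here. Likeness excludes predicted genes and pseudogenes.

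Libraries with the same number deviated together from their group means (r = 0.525, 0.270, 0.457 and 0.171 for numbers 1 to 4), all above the 0.1 taken as pairing, which comes from the data and not from a label. The fit given here is unpaired, and the replicate block is an alternative beside DESeq2 1.42.0, limma-voom (limma 3.58.1), other scalings, other count filters and libraries left out, 17 settings in all.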

Additional observations from a re-analysis of the deposited data

Results flagged for a closer look

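In 4 of 76 groups of 4 libraries examined, the library at one end lay farther from its nearest neighbour, relative to the range of the group, than Dixon's 95% critical value. Chance would flag about 1 in 20 independent groups. These groups share the same libraries, and many of the genes were named for a small p, so nothing is read from the number. Atm in Romidepsin libraries had a gap ratio of 0.872, with replicate 2 at 22.0 CPM and the others at 10.95 to 12.4 CPM. Brca2 in Untreated libraries had 0.934, with replicate 1 at 8.55 CPM and the others at 5.92 to 6.09 CPM. Nhej1 in Romidepsin libraries had 0.917, with replicate 3 at 1.72 CPM and the others at 1.23 to 1.27 CPM. The total count in Untreated libraries had 0.848, with replicate 4 at 23176949 counts and the others at 12996892 to 14542692.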

How the results depend on the processing

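The calls of Nbn and Blm held under all 17 alternatives, and those of Atr under all but 6 single-library omissions. With the replicate block, which uses the pairing of equal numbers, no call among the 9 genes changed, and 2719 genes were higher and 2667 lower among all genes, against 2610 and 2080 without it. The causes of the shifts below were not tested. Brca1 did not pass with limma-voom (1.39) or with no count filter (1.58), and Brca2 passed with housekeeping scaling (1.62). Housekeeping scaling reversed Rad50 (0.38), Mre11a (0.42), Atm (0.63), Top3a (0.22) and Top2a (0.55), and library size alone reversed Mre11a (0.000939), Atm (0.29) and Top2a (0.11). Atm, near 0, also changed sign with limma-voom (0.00653) and the block (0.10). These scalings moved the median of all genes by 0.71 and 0.30, and calls of higher genes made up 88.2% and 74.0% of all calls, against 55.7% with TMM.
With housekeeping scaling 5491 of 12852 genes were higher and 736 lower, and with library size alone 3886 higher and 1368 lower. Of the recombination partners, 16 rose and none fell with housekeeping scaling, 1 fell with library size alone, 4 rose and 1 fell with no count filter, and 1 fell with the block. Of the Fanconi genes, 6 rose and 0 fell with housekeeping scaling, 4 and 0 with library size alone, 1 and 0 at a mean of at least 10 CPM, 0 fell with no count filter or without both libraries of number 3, 3 fell in DESeq2 and 2 with the block. Of the 34 checkpoint genes, 24 rose and 0 fell with housekeeping scaling, 12 and 2 with library size alone, and 8 rose with the block. The share that rose with housekeeping scaling is above that of all genes with the same scaling. Of the end joining genes, 7 rose and 1 fell with housekeeping scaling, and 3 fell at a mean of at least 10 CPM. Of the replication genes, 21 rose and 1 fell with housekeeping scaling, 10 rose with library size alone, 8 with the block and 9 without both libraries of number 3.
Leaving out 1 library at a time gave 1793 to 3270 higher and 1187 to 3077 lower genes, and 1 to 4 of the 9 genes higher. It gave 3 to 10 recombination partners higher and 1 to 4 lower, and 1 to 6 Fanconi genes higher and 0 to 2 lower. It also gave 3 to 10 checkpoint genes higher and 2 to 5 lower, and 3 to 6 end joining genes higher and 4 to 8 lower. For the replication genes it gave 1 to 12 higher and 4 to 8 lower. The log2 fold changes ranged from 1.25 to 1.91 for Brca1, 0.29 to 1.03 for Brca2, 0.69 to 0.95 for Atr, −0.33 to 0.53 for Atm and −0.24 to 0.76 for Chek1. For the named genes of the lists, over all alternatives, 3 values were reversed, 32 lost and 14 gained a call, and 423 kept their direction and their side of the threshold. Chek1 and Atm allow no statement on direction. Chek1 had as few as 9 reads in a library, and whether depth or the spread between libraries sets its interval was not tested.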
